A study of Mus musculus with 6 samples.

Results

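The broad open domains were the stretches of at least 3000 bases that were called as 1 continuous ATAC-seq peak in wild-type (WT) mouse cardiac fibroblasts and met a peak of the Acta2 knockout (KO) cells. ATAC-seq marks open chromatin by the insertion of the Tn5 transposase into DNA that is not packed by nucleosomes. The domains were WT peaks on chromosomes 1 to 19 whose end minus start was 3000 or more and that overlapped a KO peak by at least 1 base. They numbered 4140 of 123935 WT peaks, or 3.34%. Of the 4142 WT peaks of that width on these chromosomes, 2 met no KO peak. The members were chosen by their measured width in the WT library, so their WT widths are a description and carry no test.

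The study compared cardiac fibroblasts of 2 genotypes, labelled Acta2 KO and WT, by ATAC-seq in 1 library each and by RNA-seq in 2 libraries each. Acta2 encodes smooth muscle α-actin, the marker of the myofibroblast. The mouse line is described as a tamoxifen-inducible, cardiac fibroblast-specific knockout. The labels of all libraries, WT included, name a MerCreMer induced with tamoxifen at 75 mg/kg/day for 5 days from 6 weeks of age, ligation of the left coronary artery at 9 weeks, and further tamoxifen around the infarction. For ATAC-seq they describe fibroblasts of WT and Acta2fl/fl mice that received Adeno-Cre, then TGFβ for 2 days, with 10000 cells per library. They also describe Tcf21 lineage-traced eGFP+ fibroblasts sorted from infarcted hearts, and they do not say which of these cells gave which RNA library. No label ties a replicate to its own culture or animal. The p-values therefore measure the spread between these libraries, which may be technical.

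Most open regions of a mammalian genome are short, about the footprint of a promoter or enhancer freed of its nucleosomes. Longer ones are known from highly transcribed genes, from clusters of neighbouring enhancers and from promoters inside long CpG islands, where the CpG dinucleotide has escaped the loss seen elsewhere. In fibroblasts, matrix, cytoskeletal and immediate-early genes are known to be transcribed at high rates. A narrow peak caller joins all enriched positions that touch, so the width of a peak also moves with sequencing depth and threshold.

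Sequences around the summits, the positions of highest signal, are shown for a few domains as examples. The windows below are from GRCm38 (mm10), plus strand, 5′ to 3′, and each is the longest run outside annotated untranslated sequence within 300 bases around the summit. The window at the start of B430305J03Rik, the gene with the largest rise, lay wholly in such sequence and is not shown. The first 3 come from the 3 domains widest in WT. The one at Ucp2 comes from the start-site domain of the gene with the largest fall in KO. The runs shown at Loxl1 and Ucp2 end before the summit itself. Capitals mark matches, on either strand, to TGANTCA (AP-1), GGAATG (TEAD), CCAAT (NFY), GGGCGG (GC box) or TGTGGT (RUNX). The search also covered the CArG box, and matches of different motifs were allowed to overlap.
Widest domain, chr19:5840640-5840939: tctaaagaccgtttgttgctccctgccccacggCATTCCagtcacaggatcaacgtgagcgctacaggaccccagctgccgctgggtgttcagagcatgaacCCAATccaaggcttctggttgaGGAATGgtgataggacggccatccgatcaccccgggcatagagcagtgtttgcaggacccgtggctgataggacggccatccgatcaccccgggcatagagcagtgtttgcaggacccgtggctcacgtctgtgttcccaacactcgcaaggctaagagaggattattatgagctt
Loxl1 domain, chr9:58312835-58312886: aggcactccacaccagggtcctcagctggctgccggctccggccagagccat
Thbs1 domain, chr2:118111374-118111673: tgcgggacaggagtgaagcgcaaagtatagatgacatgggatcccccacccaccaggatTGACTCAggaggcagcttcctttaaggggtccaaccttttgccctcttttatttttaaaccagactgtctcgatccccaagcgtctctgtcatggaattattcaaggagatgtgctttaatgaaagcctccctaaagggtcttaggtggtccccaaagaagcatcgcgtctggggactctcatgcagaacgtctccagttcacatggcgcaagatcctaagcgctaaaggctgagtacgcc
Ucp2 domain, chr7:100493687-100493794: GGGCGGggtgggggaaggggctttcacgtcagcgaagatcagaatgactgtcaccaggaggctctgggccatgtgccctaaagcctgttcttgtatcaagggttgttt
The window of the widest domain held CATTCC, the reverse complement of GGAATG, and GGAATG itself, and the Thbs1 window held TGACTCA. No motif of the search lay in the 52 bases left at Loxl1, which says only that these letters are not there.

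Over all summit windows of 300 bases, the domains held the AP-1 motif in 11.2%, against 21.7% of the 87977 shared WT peaks under 3000 bases. The TEAD motif was in 15.7% against 21.04%, the RUNX motif in 17.3% against 22.5%, CCAAT in 25.9% against 30.5% and the CArG box in 1.11% against 1.44%. The GC box went the other way, at 37.7% of domains and 13.1% of narrower peaks. Start sites moved with these shares. A gene start here is the single 5′ end of a gene of the expression table. Other promoters of a gene, and genes outside the table, therefore count as no start. Among regions that held a gene start, the AP-1 motif was in 5.39% of domains and 4.57% of narrower peaks, and the GC box was in 55.9% and 54.3%. Among regions without one, the AP-1 motif was in 17.8% and 23.8%, and the GC box in 17.3% and 8.22%. Among regions of like kind, the shares lay close together at starts, while away from starts the domains had a lower AP-1 share and a higher GC box share.

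CpG content followed the same split. The ratio of observed to expected CpG around the summit had a median of 0.795 in domains with a gene start. It was 0.252 in domains that overlapped a gene without a counted start and 0.226 in domains outside genes of the expression table. In narrower shared peaks it was 0.783 with a gene start and 0.210 without. Repeats filled over 50% of 142 domains (3.43%), against 5.21% of narrower shared peaks. Domains were densest on chromosomes 19, with 3.17 per Mb, and 11, with 3.14 per Mb, and sparsest on chromosome 13, with 0.963 per Mb.

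Gene starts were common among the domains. Of the 4140 domains, 2188 (52.9%, 95% Wilson interval 51.3 to 54.4, counting error only) held a start site, 1345 (32.5%) overlapped a gene without holding a start, and 607 (14.7%) overlapped no gene of the expression table. The widest domain, which covers Neat1, a gene outside the table, is among those counted without a start. Among narrower shared peaks, 10.7% held a start site. A wider interval holds more starts by its length alone, so the summit was used as well: a start lay within 500 bases of it in 37.2% of domains and 10.1% of narrower peaks. A pair or more of starts lay in 413 domains, and 4 starts lay in 3 domains.

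The domains reached into the genes more than away from them. For 1637 tested genes whose start was the only one in its domain, the domain extended a median 2583 bases downstream and 1185 bases upstream, and it reached further downstream at 1326 of them (81.0%). At 2900 bases downstream, 48.9% of these genes were inside a WT peak and 47.4% inside a KO peak. At 2900 bases upstream the shares were 18.2% and 18.4%. The KO curve tracks the WT one although KO width did not choose the domains.

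**Figure D1:**
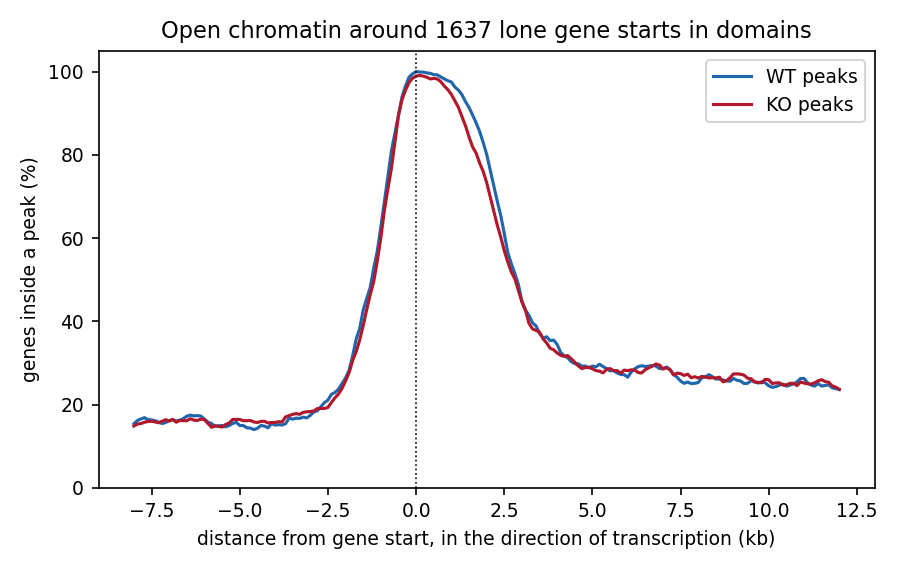
Share of 1637 genes inside a peak (%) by distance from the gene start in the direction of transcription (kb), for WT peaks and KO peaks. Both curves are near 100% at the start and fall more slowly downstream than upstream, with 48.9% in WT and 47.4% in KO at 2900 bases downstream. The WT curve is high at the start by choice of the domains.

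WT widths had a median of 3727 bases, a middle range of 3285 to 4550 and a maximum of 31842. Only 739 domains reached 5000 bases and 51 reached 10000. Together they held 14.1% of all bases in WT peaks on these chromosomes. The threshold cut a continuous range: the 196 domains of 3000 to 3049 bases met KO peaks with a median summed width of 2936.5 bases, and the 240 WT peaks just below it, of 2950 to 2999 bases, met a median of 2868. A start site lay in 46.4% of the former and 43.3% of the latter.

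In the KO library nearly the same stretches were open. KO peaks covered a median 93.0% of each domain (middle range 85.2 to 98.8%). A single KO peak met 3018 domains (72.9%), 2 peaks met 993, and 3 or more met 129. A KO peak of 3000 bases or more met 2943 domains (71.1%). The summed width of the KO peaks met was within 1.5-fold of the WT width in 3804 domains (91.9%), more than 1.5-fold larger in 208 and more than 1.5-fold smaller in 128. Across the 4140 domains the log2 widths had a Pearson r of 0.77 and a Spearman rho of 0.74, a description over regions of 1 library pair that share base composition and depth. With 1 library per genotype the difference had no replicate check.

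The KO width was smaller in 2384 domains (57.6%) and larger in 1752 (42.3%), with a median log2 KO to WT ratio of −0.03. This direction depended on which library chose the domains. When KO peaks of at least 3000 bases were chosen instead, there were 4320, the WT width was the smaller one in 60.4%, and the median log2 KO to WT ratio was 0.05. A uniform narrowing of the domains in KO was therefore not detectable.

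**Figure D2:**
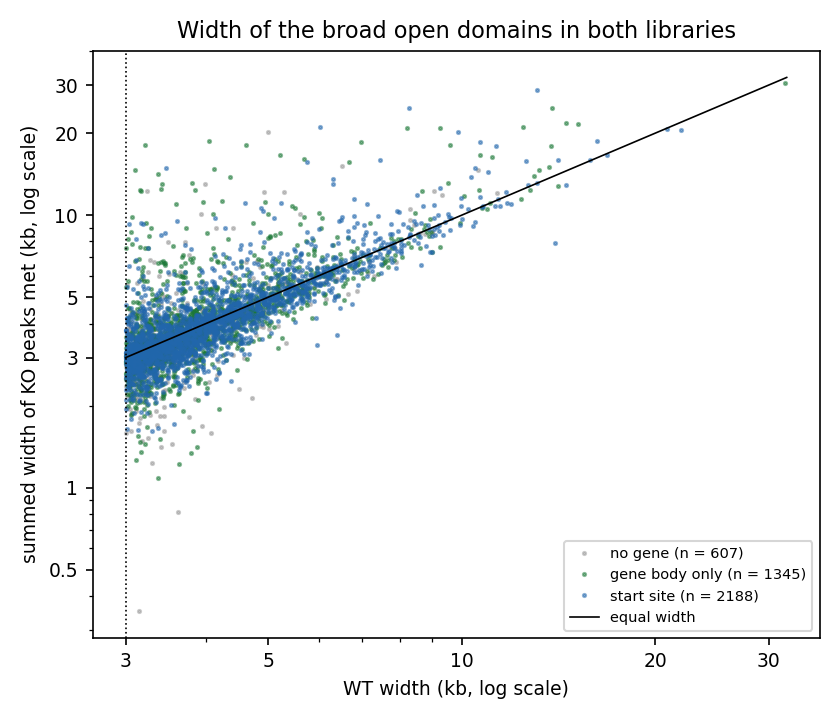
Summed width of the KO peaks that meet a domain (kb, log scale) against its WT width (kb, log scale), 1 point per domain. Colour shows whether it holds a gene start, overlaps a gene body only or overlaps no gene of the expression table. The dotted line is the threshold of 3000 bases that chose the domains and the solid line is equal width. Most points lie near it, with 3804 of 4140 within 1.5-fold.

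A few domains departed from equal width, and they were picked out after their widths were seen. KO peaks covered under 50% of 32 domains. Among the least covered within genes was a domain of 3372 bases in Zfp217 (chr2:170119550-170122921), which encodes a zinc finger repressor, with 1081 bases of KO peak. Another was a domain of 3633 bases in Timp2 (chr11:118337410-118341042), an inhibitor of matrix metalloproteinases, with 1217 bases. A domain of 3174 bases in Lmna, which encodes lamin A and C of the nuclear envelope, kept 1349. At the other end, the domain of 6308 bases at the start of Snx18, a membrane-remodelling sorting nexin, lay in a KO peak of 13601 bases. At the start of Anxa1, which encodes annexin A1, a domain of 3406 bases met KO peaks totalling 8425. These 2 were not the largest increases: their log2 KO to WT ratios were 1.11 and 1.31, and the maximum over all domains was 2.50. A summed width rises when 1 long KO peak joins neighbouring WT peaks, and 137 domains shared a KO peak with another domain. The domains at Snx18 and Anxa1 were not among those 137, and whether their KO peaks joined narrower WT peaks was not tested.

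The widest domain, of 31842 bases in WT and 30599 bases of KO peak, lay at chr19:5821506-5853347. It overlapped the 3′ part of Frmd8 in the expression table, and in GENCODE it also covers Neat1, the long noncoding RNA that scaffolds nuclear paraspeckles. The tenth widest domain, at chr19:5790783-5804883, likewise covers Malat1, another abundant nuclear noncoding RNA. The levels of Neat1 and Malat1 are not analysed here. Frmd8, which encodes a partner of the iRhom proteins, was at 97.4 and 92.0 CPM (counts scaled to a common library total) in the KO libraries and 79.4 and 79.3 in WT, a log2 fold change of 0.26 ± 0.06 (SE, edgeR adjusted p = 0.00117). The KO libraries were both above the WT ones.

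Matrix genes were among the next widest. Loxl1, a lysyl oxidase that crosslinks elastin, had a domain of 21902 bases in WT and 20463 in KO (chr9:58295007-58316908) that covered 71.4% of the gene. Its RNA stood at 206 and 201 CPM in KO and 208 and 199 in WT, and the groups overlapped (log2 fold change 0.00 ± 0.05, edgeR adjusted p = 0.984). Thbs1, the matricellular protein thrombospondin 1 that activates latent TGFβ, lay wholly inside a domain of 20874 bases in WT and 20695 in KO (chr2:118109632-118130505). Its RNA fell, from 1097 and 1130 CPM in WT to 904 and 957 in KO (log2 fold change −0.26 ± 0.03, edgeR adjusted p = 1.04e-07).

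Col1a1, the α1 chain of type I collagen, had a domain of 16197 bases in WT and 18735 in KO (chr11:94935381-94951577) over 91.3% of the gene. Its RNA fell from 1284 and 1265 CPM to 1156 and 1136 (log2 fold change −0.15 ± 0.03, edgeR adjusted p = 4.50e-05). At Loxl1, Thbs1 and Col1a1 the chromatin was open over most of the gene in both genotypes, and the RNA changes were under 1.3-fold.

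Csf1, the growth factor of macrophages, was covered over 98.6% by a pair of domains of 14515 and 13103 bases. In KO a single peak of 21696 bases met both, and the second also met another KO peak, for a sum of 28698 bases. Csf1 RNA rose from 1590 and 1630 CPM in WT to 2010 and 2037 in KO (log2 fold change 0.33 ± 0.02, edgeR adjusted p = 1.30e-11). Ehd1, which encodes an endocytic recycling protein, had a domain of 14521 bases in WT and 12880 in KO and rose from 70.0 and 75.1 to 95.3 and 92.5 CPM (log2 fold change 0.37 ± 0.06, edgeR adjusted p = 1.98e-05). Sept9, a septin of the cytoskeleton, with 14099 bases in WT and 12763 in KO inside the gene, had 37.5 and 36.3 CPM in WT and 44.1 and 48.3 in KO (log2 fold change 0.32 ± 0.08, edgeR adjusted p = 0.00344). That call was lost without KO replicate 2.

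Width did not always go with RNA. Mroh2a, with a domain of 15139 bases in WT and 21587 in KO, was between 0 and 0.24 CPM in all 4 libraries. Cyp2c29, a cytochrome P450 gene of the liver, had no count in any of the 4 libraries, and 93.7% of its domain of 13938 bases was repeat sequence. KO peaks covered 56.5% of that domain. The domain of 15828 bases at Sfi1 and Drg1 was 45.5% repeat. Of the 8 domains with the highest WT fold enrichment, 5 were 98.7 to 100% repeat. The highest, at 1169-fold (chr17:39842987-39848843), overlapped no gene of the table and was covered fully in KO. In GENCODE it overlaps AY036118, CT010467.1, Gm26917 and Gm42418, and 4.44% of it was repeat. The fold is the value of the authors' peak caller and ranks domains within the WT list.

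Some genes held many domains. Tns1, which encodes tensin 1, an actin-binding protein of focal adhesions, was overlapped by 13, the widest of 13677 bases. Its RNA was 198 and 192 CPM in KO and 188 and 193 in WT (log2 fold change 0.03 ± 0.05, edgeR adjusted p = 0.60), with overlapping groups. Gm20388 was overlapped by 22, but this gene model spans 83 other genes of the table, so neither the domains nor its counts can be assigned to it.

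Domains overlapped 3637 of 25746 genes of the expression table (14.1%), and 3147 of these passed the filter on low counts. Levels between genes are compared here per length, as TPM computed from the estimated counts and GENCODE exon lengths. The median over all 3637 genes was 12.2 TPM, against 0.459 TPM over all genes of the table. Among tested genes with their start in a domain the median was 21.9 TPM, against 11.9 TPM for tested genes with their start in a narrower shared peak. The 5 genes of highest CPM were Ftl1 (32933 TPM), the ferritin light chain, Actb (7298 TPM), cytoplasmic β-actin, Sparc (4293 TPM), a collagen-binding matrix protein, Eno1 (3647 TPM), the glycolytic enolase, and Pkm (3007 TPM), pyruvate kinase. Gm37376, in the Malat1 domain, was listed at 9778 TPM, and it lies within the annotated interval of Malat1 on the other strand, so its reads cannot be told apart from those of Malat1. Reads of Ftl1, Actb, Eno1 and Pkm can be shared with related or overlapping genes, so their estimates are uncertain.

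The median level rose with width. In domains of 3000 to 3500 bases the genes starting there had a median of 18.1 TPM. It was 18.7 in those of 3500 to 4000, 23.4 in those of 4000 to 5000, 31.3 in those of 5000 to 7000 and 45.5 TPM in those of 7000 or more. Across the 2349 tested genes the correlation of log2 width with log2 TPM was weak, with a Pearson r of 0.15 and a Spearman rho of 0.12. The share of a gene's own length inside domains followed its level more closely, with r of 0.35 and rho of 0.36. These are descriptions across genes, which are not independent replicates and share libraries and composition. The 200 genes with at least 90% of their length in domains had a median of 125 TPM and a median length of 2334.5 bases. The 859 genes with under 10% had 10.8 TPM and 55810 bases. Gene length thus differed along with level between these sets.

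RNA was compared between KO and WT by edgeR's quasi-likelihood test on all 12192 genes that passed the filter, and a gene is called here at an adjusted p under 0.05. Of all tested genes, 35.7% were called, 18.3% higher and 17.4% lower in KO. Of the 3147 tested genes overlapped by a domain, 1291 (41.0%) were called, 816 (25.9%) higher and 475 (15.1%) lower, with a median log2 fold change of 0.05 against 0.00 over all tested genes. Changes were mostly small. At least 2-fold, 79 rose and 31 fell, or 3.495% together, against 5% of all tested genes, of which 2.99% rose and 2.02% fell. In bulk RNA, fewer cells of a type and less RNA per cell cannot be told apart.

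The calls depended on the spread assumed. The fitted biological coefficient of variation was 0.0311, close to technical repeats. DESeq2 called 14.2% of domain genes higher and 9.85% lower, against 7.89% and 8.99% of all tested genes. With an assumed coefficient of 0.2, which called 3.26% of all tested genes, the shares were 1.72% and 0.763%, against 1.83% and 1.44%. The excess of higher calls among domain genes was thus not seen at that spread, which cannot decide on changes this small. Called domain genes had a median absolute log2 fold change of 0.381 in the edgeR fit. In counts simulated at a coefficient of 0.2, the quasi-likelihood test recovered 4% of 1.5-fold and 18% of 2-fold changes.

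In the edgeR fit, width of the open region at the start went with the share of higher calls. Of 2349 tested genes with a start in a domain, 614 (26.1%) were called higher and 369 (15.7%) lower. Of 8075 with a start in a narrower shared peak, 1300 (16.1%) were higher and 1392 (17.2%) lower. By domain width, the share called higher was 22.0% at 3000 to 3500 bases, 23.3% at 3500 to 4000, 27.8% at 4000 to 5000, 33.1% at 5000 to 7000 and 35.4% at 7000 or more. The share called lower was 14.4%, 17.4%, 17.4%, 14.8% and 13.4% in the same order. The width classes were set after other values of these data were seen. At least 2-fold, 49 start-site genes rose and 24 fell, or 3.11% together. At narrower peaks 205 rose and 131 fell, or 4.16%. In domains of 7000 bases or more, 1 rose and 2 fell at that size. DESeq2 called 14.8% of start-site genes higher and 10.5% lower, against 5.98% and 8.26% at narrower peaks. With the assumed coefficient of 0.2 the shares were 1.45% and 0.766%, against 1.52% and 1.10%. No excess of higher calls was seen at that spread, which can hardly show changes of the usual size here.

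**Figure D3:**
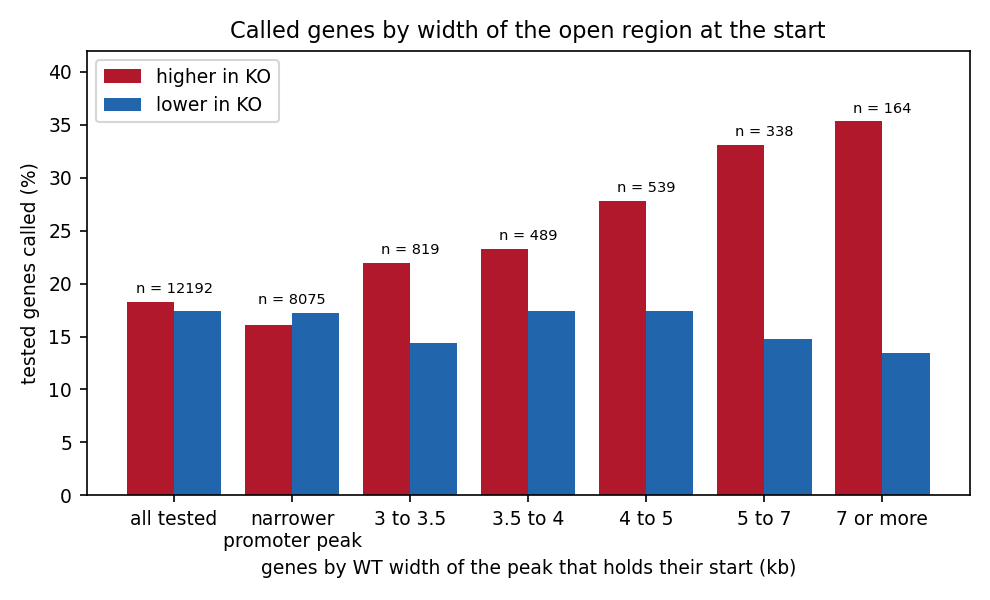
Share of tested genes called higher or lower in KO (%, edgeR adjusted p under 0.05) for all tested genes, for genes whose start lies in a narrower shared peak, and for genes whose start lies in a domain, by its WT width (kb). The higher bars run from 22.0% to 35.4% across the domain classes, and the lower bars stay between 13.4% and 17.4%. Numbers above the bars are tested genes.

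Highly expressed genes are called more easily, so the shares are given by level too. Among genes of 15 to 50 TPM, 33.9% of those starting in a domain were called higher and 13.9% lower, against 18.9% and 19.8% of those starting in a narrower peak. Among genes of 50 TPM or more the shares were 30.4% and 26.1%, against 18.1% and 31.8%. Below 5 TPM they were 15.7% and 6.02%, against 12.3% and 8.43%. In each level class, including 5 to 15 TPM at 21.5% against 16.5%, the share called higher was larger for genes starting in a domain and the share called lower was smaller.

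The change in width at the start and the change in RNA were weakly related. The KO width was the larger one at 322 of 614 genes called higher (52.4%), 133 of 369 called lower (36.0%) and 555 of 1366 not called (40.6%). Among genes changed at least 2-fold it was larger at 23 of 49 that rose and 4 of 24 that fell. Over the 2349 genes the log2 width ratio and the log2 fold change had a Pearson r of 0.09 and a Spearman rho of 0.11, as a description across genes. Each width came from 1 library per genotype, and the comparison was chosen after other results were known.

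Acta2, the deleted gene, checks the genotype labels of the RNA libraries, but not those of the ATAC-seq libraries. Its domain of 4947 bases in WT (chr19:34251517-34256463) held the gene start and met 4224 bases of KO peak. Its RNA stood at 2186 and 2200 CPM in WT and 256 and 265 in KO (log2 fold change −3.07 ± 0.03, edgeR adjusted p = 1.59e-32). Both KO libraries were far below both WT libraries, while the region at the start remained a broad peak.

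The domains of the other genes that fell most met a KO peak by the rule that chose them, so only their widths are described. Ucp2, a mitochondrial carrier of the uncoupling protein family, fell the most of the named genes, from 109 and 104 CPM in WT to 6.66 and 4.56 in KO (log2 fold change −4.23 ± 0.11, edgeR adjusted p = 3.35e-22). Its domain of 3221 bases met 2198 bases of KO peak. Ccn2, connective tissue growth factor, a secreted target of both TGFβ and YAP signalling, fell from 912 and 927 to 109 and 110 CPM (log2 fold change −3.07 ± 0.04, edgeR adjusted p = 5.96e-30). It lay wholly inside a domain of 5590 bases in WT and 5275 in KO. Cramp1l, with 40.5 and 40.3 CPM in WT and 4.38 and 5.29 in KO, had 4045 bases in WT and 4154 in KO. Lmtk2, a transmembrane kinase, fell by 2.25 on the log2 scale, Kif26b, a kinesin family member, by 1.99, and Slc9a9, an endosomal sodium/proton exchanger, by 1.67. The widths at these 3 differed by less than 1.2-fold between the libraries. Gm49325, the eighth gene of this group, overlaps other genes, and its call was lost without WT replicate 1, with a log2 fold change of −0.57 in place of −1.53.

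Among the genes that rose most, the domains were open in KO to a similar extent. Itga5, the α5 subunit of the fibronectin receptor, rose from 141 and 138 CPM in WT to 367 and 369 in KO (log2 fold change 1.40 ± 0.04, edgeR adjusted p = 4.13e-20), with 5376 bases in WT and 5081 in KO. Mbnl1, an RNA-binding regulator of splicing, rose from 112 and 120 to 425 and 476 CPM (log2 fold change 1.96 ± 0.05, edgeR adjusted p = 7.18e-22), with 4819 bases in WT and 4709 in KO inside the gene. Sfn, the 14-3-3σ protein, a p53 target, rose from 15.4 and 18.9 to 67.7 and 62.5 CPM (log2 fold change 1.92 ± 0.10, edgeR adjusted p = 3.46e-15), with 3574 and 3103 bases. B430305J03Rik had no count in either WT library and 10.8 and 9.22 CPM in KO. Against the floor of 3 counts per WT library it was at least 28.9-fold higher. Fbxl18, an F-box protein, rose by 2.21, Ngfr, the p75 neurotrophin receptor, by 1.89, Plcd3, a phospholipase C, by 1.70 and Myo7a, an unconventional myosin, by 1.43 on the log2 scale, all from under 5 CPM in WT.

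**Figure D4:**
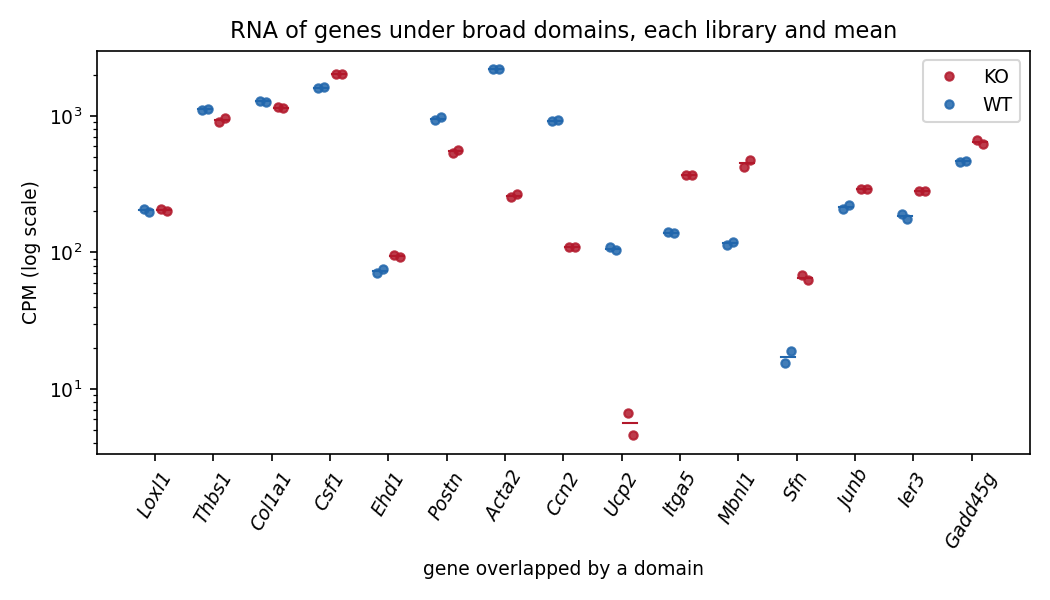
CPM (log scale) in each RNA library for 15 genes overlapped by a domain, with KO and WT libraries as points and the group mean as a line. Loxl1 overlaps between genotypes, the matrix and cytokine genes of the widest domains differ little, and Acta2, Ccn2 and Ucp2 are lower and Itga5, Mbnl1 and Sfn higher in both KO libraries.

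Gene lists were written with earlier results of these data known, so their counts describe these libraries and are not independent evidence of a direction. Each count stands beside the shares given above, 18.3% higher and 17.4% lower over all tested genes and 25.9% and 15.1% over tested genes under a domain. AP-1 and immediate-early genes, the transcription factors and RNA-decay factors that cells switch on within minutes of a stimulus, were, of the 15 lists, the one most often under a domain, with 25 of 30 genes. Of these 25, 15 were called higher and 1 lower, with a median log2 fold change of 0.26, and 2 of the 3 tested under no domain were called higher. Junb lay wholly inside a domain of 9189 bases in WT and 9972 in KO and rose from 208 and 223 CPM to 289 and 289 (log2 fold change 0.42 ± 0.04, edgeR adjusted p = 1.21e-08). Jund (9066 and 8431 bases) rose by 0.78 and Ier3 (7746 and 6930 bases) by 0.62. Zfp36, an mRNA-decay factor with 10972 and 14446 bases, rose by 0.44, and Jun by 0.34. Egr1 and Fos did not pass the test, with log2 fold changes of 0.06 and 0.07 under domains of 8831 and 3910 bases. Bhlhe40, a circadian repressor, was the one called lower, at −0.43.

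Contractile, SRF and actin genes were under a domain in 23 of 36 cases, with 17 called higher and 2 lower, Acta2 and Ablim1, and a median log2 fold change of 0.27. Myl9, the regulatory light chain of smooth muscle and nonmuscle myosin, rose from 508 and 521 CPM to 942 and 908 (log2 fold change 0.85 ± 0.03, edgeR adjusted p = 4.28e-18), while its domain had 3621 bases in WT and 2950 in KO. Tagln rose by 0.61, Tpm2 by 0.59, Cnn2 by 0.44 and Actb by 0.26. Actg1 rose by 0.39, but its reads can be shared with other actin genes. Srf, the transcription factor that binds CArG boxes, rose by 1.21 from a mean of 3.78 CPM. Among the 13 listed genes under no domain, 10 were called higher and 1 lower, with a median of 0.94.

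Markers of some other cell types moved with genotype beside these counts, while the cardiomyocyte and mesothelial sums overlapped between genotypes. None of the 14 endothelial markers was under a domain, and 9 of 12 tested were called higher in KO, with a summed level of 162 to 175 CPM in KO and 121 to 127 in WT. Of the macrophage and leukocyte markers 3 of 14 were under a domain, 6 of 10 tested were called higher and the summed level was 183 CPM in both KO libraries and 102 to 106 in WT. Fcgr1 was at 0 and Ptprc under 1 CPM in both groups. Pericyte and smooth muscle markers summed to 89.0 to 96.2 CPM in KO and 61.2 to 62.6 in WT, with 2 of 10 under a domain, Mcam, higher at 1.10, and Cspg4, lower at −0.58. None of the 12 cardiomyocyte markers was under a domain, and they summed to 15.5 to 16.7 CPM in the 4 libraries, with Nppa at 0. Mesothelial markers summed to 308 to 318 CPM in KO and 307 to 320 in WT, and 1 of 9, Krt19, was under a domain and rose by 0.49. The other 8 mesothelial markers had a median log2 fold change of −0.23, with 4 called lower. The part of these markers in the changes of the domain genes was not tested.

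Matrix genes leaned the other way. Of 38 listed, 22 were under a domain, 5 of these were called higher and 11 lower, and the median log2 fold change was −0.06. The 15 tested under no domain had a lower median, −0.30, with 9 called lower, and the whole list had 5 higher and 20 lower. Postn, the matricellular marker of activated cardiac fibroblasts, fell from 932 and 972 CPM to 537 and 561 (log2 fold change −0.79 ± 0.03, edgeR adjusted p = 2.34e-17). Its start-site domain had 3877 bases in WT and 2682 in KO. Adamts5, an aggrecan-degrading protease, fell by 0.71, Fbn1, fibrillin 1, by 0.47, Col1a2 by 0.46 and Lox, the lysyl oxidase, by 0.33. Timp3, an inhibitor of metalloproteinases, rose by 0.37, Tnc, tenascin C, by 0.38 and Col4a1 by 0.32. Sparc fell by 0.24. The widest of its 3 domains, of 3726 bases and without its start, met KO peaks of 9000 bases in sum, including bases outside that domain.

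**Figure D5:**
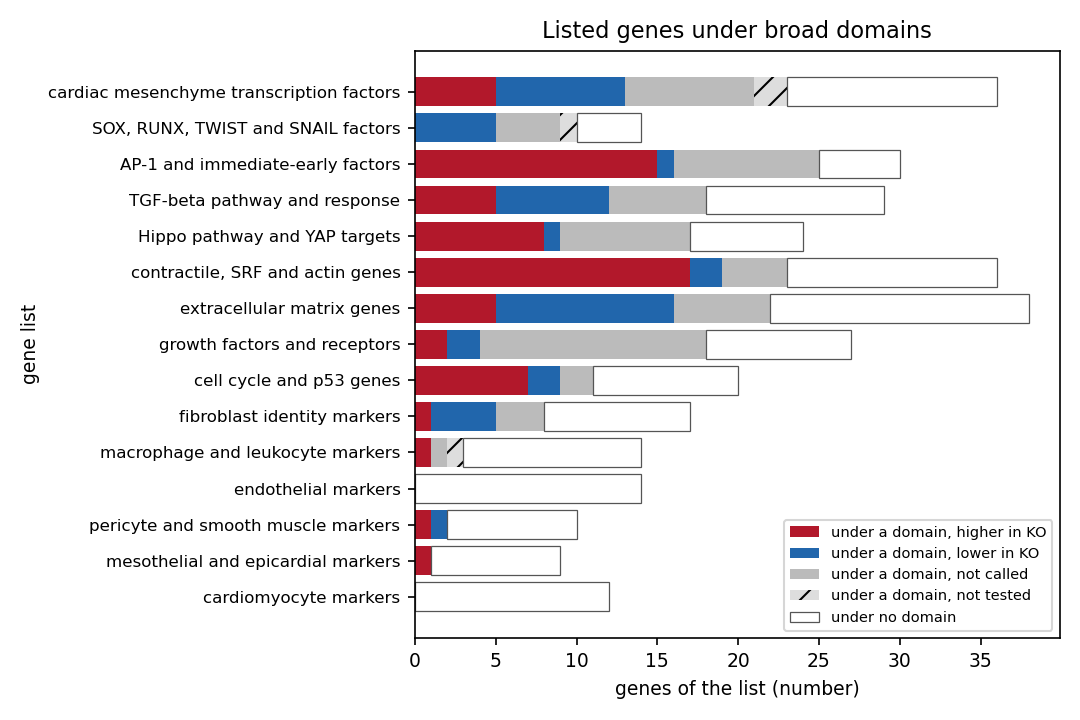
Number of genes in each of 15 lists, split into genes under a domain that were called higher or lower in KO, not called or not tested, and genes under no domain. AP-1 and immediate-early genes have 25 of 30 under a domain, the endothelial and cardiomyocyte lists none.

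TGFβ pathway and response genes were split, with 18 of 29 under a domain, 5 higher and 7 lower. The 11 tested under no domain had 3 higher and 4 lower. Among ligands, Tgfb3 rose from 24.0 and 22.3 CPM to 48.7 and 50.1 (log2 fold change 1.09 ± 0.09, edgeR adjusted p = 1.42e-10), and Tgfb1 did not pass the test at −0.01. The receptor gene Bmpr2 fell by 0.53. Of the inhibitors of DNA binding, which are BMP targets, Id2 rose by 1.01 and Id3 by 0.46, and Id1 fell by 0.38. Of the feedback inhibitors, Smad7, with a domain of 12578 bases in WT and 15824 in KO, fell by 0.56 and Pmepa1 by 0.41. The transducer Smad3 did not pass the test at −0.04. Hippo pathway genes and YAP targets had 17 of 24 under a domain, 8 higher and 1 lower, Myof at −0.34, with a median of 0.18. The 7 under no domain had 4 higher and 1 lower and a median of 0.32. F3, tissue factor, rose by 0.65, Ajuba, a LIM protein that binds the kinase LATS, by 0.61, Axl, a receptor tyrosine kinase, by 0.31 and Ccn1, with 13099 bases in WT and 13092 in KO, by 0.17. Ccn2, which is also a YAP target, was counted in the TGFβ list.

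Transcription factors of the mesenchyme were often under a domain as well. Of 36 cardiac mesenchyme factors 23 were, with 5 called higher and 8 lower and a median of −0.07. The 13 tested under no domain had 1 higher and 7 lower and a median of −0.47, so the whole list had 6 higher and 15 lower. Gata4, a cardiac zinc finger factor, rose from 16.2 and 13.6 CPM to 29.2 and 28.6 (log2 fold change 0.96 ± 0.12, edgeR adjusted p = 3.28e-07) under domains that included one of 4536 bases in WT and 4314 in KO. Osr1 fell from 118 and 123 to 63.7 and 69.2 CPM (log2 fold change −0.86 ± 0.06, edgeR adjusted p = 3.21e-12). Gata6, with 7732 and 8532 bases, did not pass the test at 0.13. Of 14 SOX, RUNX, TWIST and SNAIL factors 10 were under a domain, 9 were tested, 0 were called higher and 5 lower. Sox9 fell by 0.53, Twist2 by 0.55, Snai1 by 0.38, Zeb1 by 0.26 and Runx1 by 0.24. edgeR at an unadjusted p under 0.05 gave 0 higher and 7 lower, DESeq2 with adjustment gave 0 and 2, and the assumed coefficient of 0.2 gave 0 and 0 with or without adjustment. Of the 4 tested under no domain 1 was higher.

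The remaining lists were growth factors and receptors, cell cycle and p53 genes, and fibroblast identity markers. Of 27 growth factors and receptors 18 were under a domain, and 2 were called higher, Egfr at 0.38 and Vegfa at 0.38, and 2 lower. The 8 tested under no domain had 3 in each direction. The lower ones under a domain were Cxcl12, the chemokine of stromal cells, which fell from 448 and 456 CPM to 241 and 248 (log2 fold change −0.89 ± 0.04, edgeR adjusted p = 1.20e-16), and Pdgfra, the fibroblast marker, at −0.19. Of 20 cell cycle and p53 genes 11 were under a domain, 7 higher and 2 lower, with a median of 0.18. The 8 tested under no domain went the other way, with 2 higher, 5 lower and a median of −0.51, so the whole list had 9 higher and 7 lower. Gadd45g, a stress-induced gene wholly inside a domain of 7996 bases in WT and 10244 in KO, rose by 0.46, Cdkn1a, the inhibitor p21, by 0.12, and the cyclin Ccnd2 fell by 0.40. Of 17 fibroblast identity markers 8 were under a domain, 1 higher, Gsn at 0.11, and 4 lower, Col1a1, Postn, Pdgfra and Dpep1. The 8 tested fibroblast markers under no domain had 2 higher and 4 lower and a median of −0.68. Among them Dcn, the proteoglycan decorin, fell from a mean of 637 CPM in WT to 359 in KO, and Tcf21, a fibroblast transcription factor, was at 10.9 and 11.1 CPM in WT and 5.61 and 6.84 in KO.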

How the data were processed

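ATAC-seq peaks were called by the authors with MACS2 in each library separately, after alignment to mm10 with Bowtie2 2.3 and removal of duplicates, per the labels' protocols. In the deposited lists each peak has an integer score, a fold enrichment (a ratio), and p-value and q-value columns in −log10 units. Library depth was not used here. RNA values are the authors' deposited estimated counts per gene, from STAR 2.5.3a alignments per the labels' protocols, with totals of 8429166 to 11370115. The counting program is not given in the sources used here. The planned tests expected whole counts and a strand column. The table had neither, so the estimates were rounded, and start sites came from GENCODE M21, which held 25635 of 25746 genes by identifier. Levels were planned as CPM and are given per length, as TPM, where genes are compared.

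Testing used the quasi-likelihood fit of edgeR 4.0.16 (R 4.3.3), with filterByExpr at a minimum count of 10, TMM factors, genotype as the sole term and Benjamini-Hochberg adjustment at 0.05, and the test was checked on simulated data. CPM used TMM-scaled library sizes, and errors of fold changes are SE. The named genes were Acta2, the genes of the 12 widest domains, the 8 largest rises and 8 largest falls among calls whose mean log2 CPM was 2 or more and whose groups did not overlap, up to 3 per list, the 3 genes with the most domains and the 5 with the highest CPM. Other list members and single domains were named after their values were seen. Alternatives were DESeq2 1.42.0, scaling by library size, no filter, a replicate block, an assumed spread, each library left out, and other domain thresholds. DESeq2 was first run without the filter and then, after that count was seen, on the same genes as edgeR. Domains and lists were chosen with earlier results of these data known. Junb, Mbnl1, Ucp2, Tgfb3, Timp3, Col1a2, Pkm, Ftl1, Dpep1, Drg1, Sfi1 and B430305J03Rik overlap another gene of the table, and no strand was kept to separate them. Some named genes are not reported here.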

Additional observations from a re-analysis of the deposited data

How the results depend on the processing

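With DESeq2, 2058 of all tested genes were called in place of 4352, 758 of those overlapped by a domain in place of 1291, and 594 of those starting in one in place of 983. With an assumed coefficient of variation of 0.2 these counts were 398, 78 and 52. Leaving out each library in turn gave 3392 to 3674 calls in all, 1069 to 1148 among overlapped genes and 822 to 866 among genes starting in a domain. The fit with the replicate number as a block called 1337 overlapped genes, and the numbers did not pair the libraries (correlation of deviations 0.0004 over 2 pairs). It lost the call of Gm20388. A width threshold of 2500 gave 7047 domains with a median width of 3161 bases, a median level of 3.56 (log2 of TPM + 1, in place of 3.71) and a start site in 49.5%. A threshold of 4000 gave 1622 domains, a median width of 4872, a median log2 KO to WT width of −0.022, a level of 4.13, a start site in 57.7% and 689 called genes. Choosing on KO width gave a median log2 KO to WT width of 0.047 and a start site in 50.9%. Without domains that were over 50% repeat, an alternative chosen after seeing the data, 54.6% held a start site. Of the 61 called named genes, DESeq2 lost 9 (Cspg4, Drg1, Eno1, Gm20388, Gm49325, Runx1, Sept9, Sfi1 and Vegfa) and the assumed spread lost 42. Without KO replicate 1, the calls of Cspg4, Eno1, Gm20388, Runx1 and Sfi1 were lost, and without WT replicate 2 those of Cspg4, Drg1, Eno1, Runx1 and Sfi1. Without KO replicate 2, those of Drg1, Sept9 and Sfi1 were lost, and without WT replicate 1 those of Gm20388 and Gm49325. Of the 61 called named genes, none changed direction in these fits. The direction of named genes that were not called, such as Loxl1 near no change, is not described. The cause of these differences was not tested. ATAC-seq had 1 library per genotype, so no width has a replicate error.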
